A study of Mus musculus with 30 samples.

Results

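The interferon-inducible GTPases and the transcription factor *Irf1* were followed through AOM/DSS colitis in the mouse colon. The members were the 9 gene symbols *Gbp2*, *Gbp3*, *Gbp5*, *Gbp6*, *Gbp7*, *Irgm1*, *Igtp*, *Iigp1* and *Irf1*, taken by name from a counts table of 46078 genes. They matched 10 rows, because the symbol *Gbp6* stood on 2 rows, and 9 rows, 1 per symbol, were among the 16261 genes that passed the filter on low counts. RNA came from the scraped epithelial layer of the colon of wild-type (WT) C57BL/6J mice aged 5 to 10 weeks at the start, with 5 mice in each of 6 groups and 1 library per mouse. Vehicle-treated females and males received saline and were killed at 9 weeks. AOM/DSS-treated females and males received the carcinogen azoxymethane (AOM) at 10 mg/kg by a single intraperitoneal injection, then 3 cycles of dextran sulfate sodium (DSS), a colon irritant, at 2.5% in the drinking water, and were killed at 9 or 15 weeks. The vehicle groups were all of 9 weeks, and at 15 weeks the effect of treatment and that of elapsed time therefore cannot be told apart. The scraped layer was measured in bulk, so more cells of a type and more RNA per cell cannot be told apart.

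Guanylate-binding proteins (GBPs) and immunity-related GTPases (IRGs) are the main cell-autonomous weapons that interferon gamma switches on in mouse cells. They gather on the vacuoles of intracellular bacteria and parasites, break these open, and bring their contents to inflammasomes. Interferon gamma binds its receptor, which acts through the kinases Jak1 and Jak2, and target promoters, among them that of *Irf1*, carry the GAS element. Irf1 protein then binds elements with repeated GAAA letters in the promoters of GBP and IRG genes, and is itself needed for much of their induction. In the gut, epithelial cells and the immune cells beneath them both make these GTPases.

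Of the 9 members, 4 lie in a GBP cluster on chromosome 3 of GRCm38, all on the plus strand. These are *Gbp5* (ENSMUSG00000105504, chr3:142493978-142522344), *Gbp7* (ENSMUSG00000040253, chr3:142530342-142550149), *Gbp3* (ENSMUSG00000028268, chr3:142560026-142573209) and *Gbp2* (ENSMUSG00000028270, chr3:142620602-142638008). *Gbp6* (ENSMUSG00000104713, chr5:105270702-105293698, minus strand) lies in the other GBP cluster. *Irgm1* (ENSMUSG00000046879, chr11:48861968-48871683, minus strand), *Irf1* (ENSMUSG00000018899, chr11:53770014-53778374, plus strand) and *Igtp* (ENSMUSG00000078853, chr11:58199556-58207591, plus strand) share chromosome 11. Exons overlap those of other genes in 5 members, which makes their counts less certain. *Gbp6* shares 1726 exon bases with a longer gene model that also carries its symbol in the counts table, *Gbp7* shares 637 with the pseudogene *Gm43802*, *Igtp* shares a shorter stretch with its neighbour *Irgm2*, *Irf1* shares 135 with the opposite-strand gene *Gm17334*, and *Gbp2* shares 24 with the opposite-strand *Mir6381*.

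Promoter windows of RefSeq (GRCm38.p6), from 250 bases before to 50 after each transcript start, were matched for 7 of the 9 members, not for *Gbp6* and *Iigp1*. They are shown to describe the letters near the starts, and no link to the levels in the libraries was tested. The letters searched, on both strands, were GAAANNGAAA, the spacing of an IRF-binding element, and TTCNNNGAA, the core of a GAS element. Capitals mark every match, with 20 flanking bases where the window allowed, and each sequence reads 5′ to 3′ on the strand of its gene.
*Gbp2*, chr3:142620584-142620633, plus strand: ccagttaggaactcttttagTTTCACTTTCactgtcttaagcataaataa
*Gbp3*, chr3:142559979-142560034, plus strand: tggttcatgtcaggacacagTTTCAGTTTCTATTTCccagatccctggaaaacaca
*Gbp5*, chr3:142496684-142496910, plus strand: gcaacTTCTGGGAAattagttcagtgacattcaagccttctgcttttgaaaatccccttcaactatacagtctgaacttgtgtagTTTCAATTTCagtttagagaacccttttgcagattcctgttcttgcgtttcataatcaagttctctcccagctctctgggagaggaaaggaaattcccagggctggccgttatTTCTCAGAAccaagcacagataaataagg
*Gbp7*, chr3:142530210-142530312, plus strand: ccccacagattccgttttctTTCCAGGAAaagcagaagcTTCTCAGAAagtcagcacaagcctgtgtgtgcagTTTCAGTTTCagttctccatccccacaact
*Irgm1*, chr11:48871415-48871470, minus strand: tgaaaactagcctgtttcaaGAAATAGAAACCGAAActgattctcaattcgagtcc
*Igtp*, chr11:58199491-58199551, plus strand: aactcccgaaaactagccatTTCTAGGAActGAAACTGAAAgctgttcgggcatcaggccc
*Irf1*, chr11:53769904-53769952, plus strand: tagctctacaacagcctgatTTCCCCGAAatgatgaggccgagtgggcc

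All 6 of the GTPase windows held the IRF element, and the *Irf1* window did not. Among all 32851 windows of the table, 1131 (3.44%) held it. That share is per window, while the members are counted per gene, and *Gbp3* and *Irf1* had 2 windows each. The GAS letters were found in 4 of the 7 members, *Gbp5*, *Gbp7*, *Igtp* and *Irf1*, and in 2726 (8.30%) of all windows. In *Gbp3* and *Irgm1*, 2 matches of the IRF element overlapped each other, and in *Igtp* the GAS and IRF letters lay next to each other without overlap. The IRF element began 24 to 59 bases before the start in *Irgm1*, *Igtp*, *Gbp3*, *Gbp7* and *Gbp2*, and 165 bases before it in *Gbp5*. The RefSeq start of *Gbp5* lies 2956 bases from the gene start in the counts table. Related lists were counted by genes with a window. The IRF element was held by 6 of 10 other IRG genes and 8 of 12 genes known mainly from type I interferon. It was also held by 1 of 8 other interferon gamma targets, 1 of 7 other IRF genes, 2 of 8 genes of interferon gamma signalling and 1 of 1 other GBP gene. The GAS letters were held by 5 of 10, 3 of 12, 2 of 8, 2 of 7, 2 of 8 and 0 of 1 genes of these lists, in the same order. A match is a description of letters, and binding was not measured.

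**Figure D1:**
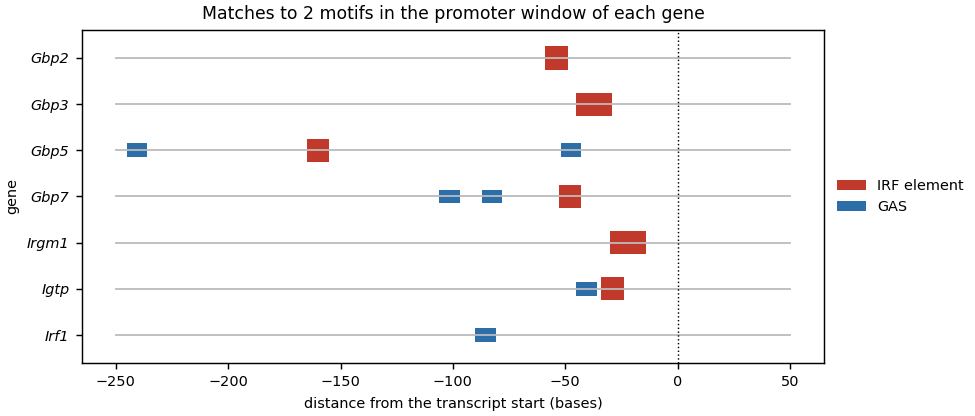
Positions of the matched letters relative to the transcript start (x axis, bases) in the promoter windows of 7 members (y axis). Red blocks are IRF elements, blue blocks GAS letters and grey lines the windows. The IRF element lies within 59 bases of the start in 5 genes and at 165 bases in *Gbp5*, and *Irf1* holds GAS letters alone, 90 bases before its start.

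Libraries held 9265804 to 30806392 counts on genes, and duplicate reads were not removed. Values are given as CPM, counts scaled to a common library size with TMM factors. The markers of the labelled tissue were present in every library, the 10 epithelial markers together at 13640 to 46105 CPM. Markers of other cells were present too. Of the listed markers, 5 of 10 for T and NK cells, 4 of 10 for macrophages, 5 of 7 for neutrophils and 3 of 8 for B and plasma cells passed upward at 9 weeks against vehicle, and 1, 0, 2 and 0 of them at 15 weeks. Over all genes tested, 5.51% passed upward at 9 weeks and 3.46% at 15 weeks. Of 12 fibroblast and smooth muscle markers 9 passed downward at 15 weeks, where 633 of the 16261 genes did. Together these 12 reached 6264 CPM in male vehicle replicate 1, beside 18.9 to 499 CPM in the other vehicle libraries. Their median sum was 27.0 CPM with vehicle and 46.2 at 15 weeks in females, and 215 and 112 in males. How far the downward count rests on that male library was not tested. Of 8 endothelial markers 0 passed at 9 weeks and 1 passed downward at 15 weeks. At 9 weeks, 1 of 10 epithelial markers passed upward. The part of these cells in the members' values was not tested. Within its group, male vehicle replicate 1 (median rank correlation 0.946), female 9-week replicate 5 (0.958) and female vehicle replicate 1 (0.963) stood furthest apart, and female vehicle replicate 5 had the fewest counts. Results are given below with and without these 4 libraries where they changed. In the report, the per-length TPM values of the authors order genes within a library and CPM compares libraries, because the mitochondrial gene *mt-Nd4l*, at 0.479 to 6.54 CPM, took 39.2% to 58.1% of each library's TPM total, and TPM relative to CPM ran from 0.323 to 1.46 times its median between libraries. By condition this ratio had a median of 0.950 in vehicle, 1.27 in 9-week and 0.830 in 15-week libraries. The FPKM minimum used below to call genes comes from the same estimates as TPM.

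In vehicle-treated mice the members ranged over a wide span of levels per length. By median TPM over the 10 vehicle libraries, *Irf1* stood first (55.4 TPM), *Irgm1* next (13.4) and *Gbp2* (2.51) and *Igtp* (2.31) after them. Then came *Gbp7* (0.751), *Gbp3* (0.591), *Gbp6* (0.436), *Iigp1* (0.209) and *Gbp5* (0.109). *Irf1* was above *Irgm1*, *Irgm1* above *Gbp2* and *Igtp* above *Gbp7* in 10 of 10 libraries. *Gbp2* was above *Igtp* in only 6 of 10, and the neighbours from *Gbp7* down kept their order in 6 or 7 of 10, so these were not separated. At 9 weeks of AOM/DSS the medians were 114.3 TPM for *Irf1*, 37.3 for *Irgm1*, 26.8 for *Gbp2* and 24.3 for *Igtp*. *Gbp2* was above *Igtp* in 5 of 10 libraries there and in 3 of 10 at 15 weeks, so these 2 were not separated. At 9 weeks *Iigp1* stood at 12.5 TPM, next after *Igtp*, and above *Gbp3* in 9 of 10 libraries. At 15 weeks *Iigp1* again came next after *Igtp*, at 1.68 TPM, and *Gbp5* still last at 0.139.

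The first comparison asked how colitis soon after the third DSS cycle changed these genes. All 9 members rose at 9 weeks against vehicle with the sexes averaged, by 0.75 to 5.04 on the log2 scale (median 2.77, against -0.02 over all genes tested). A gene was called when its Benjamini-Hochberg adjusted p in edgeR's quasi-likelihood test was under 0.05. Its log2 fold change also had to be beyond 0.4 and its mean FPKM at least 1 in a compared group. Here 896 of 16261 genes (5.51%) were called upward. *Gbp5*, *Iigp1*, *Gbp6* and *Gbp3* had a mean FPKM under 1 with vehicle (0.180, 0.407, 0.556 and 0.855). They met the minimum only through the 9-week libraries, so for them the rule could call a rise but not a fall. In 4 members, *Gbp2*, *Gbp6*, *Igtp* and *Irf1*, the lowest of the 10 libraries of 9 weeks was above the highest of the 10 vehicle libraries, which held for 0.935% of all genes tested. In the other 5 a single library, female 9-week replicate 5, fell within the vehicle range. Without that library the changes were 0.75 to 5.18, and 9 of 9 members stayed called in each of the 20 fits that left out 1 library and in the fit without the 4 libraries that stood apart.

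*Iigp1* (ENSMUSG00000054072, chr18:60376029-60392627, plus strand), an effector IRG that coats the vacuole of *Toxoplasma*, changed most. Its vehicle libraries ran from 0.0 to 5.68 CPM (median 1.35), and its 9-week libraries from 4.35 to 119 CPM (median 53.6). The groups met in 1 library, since female 9-week replicate 5 at 4.35 CPM was under the highest vehicle library, female replicate 2. The log2 fold change was 5.04 (95% interval 3.83 to 6.25, adjusted p = 8.09e-07), 33.0-fold.

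*Igtp* encodes a regulatory IRG of the endoplasmic reticulum. It lay between 4.06 and 12.9 CPM (median 7.96) with vehicle and between 20.3 and 126 (median 70.5) at 9 weeks. No library of the 2 conditions overlapped, and the log2 fold change was 3.10 (2.49 to 3.70, adjusted p = 4.12e-08). *Irgm1*, the regulatory IRG that keeps effector IRGs off the cell's own membranes, started higher and changed less. It went from 37.6 to 60.2 CPM (median 42.9) with vehicle to 56.0 to 161 (median 104) at 9 weeks, a log2 fold change of 1.25 (0.93 to 1.56, adjusted p = 2.06e-06). Only female 9-week replicate 5 was within its vehicle range.

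Among the GBPs, *Gbp2* is a lipid-anchored GTPase that is among the first to reach bacterial vacuoles. Its vehicle libraries lay at 4.96 to 22.3 CPM (median 10.5) and its 9-week libraries at 24.1 to 212 (median 86.3). The ranges did not overlap, and the log2 fold change was 3.13 (2.38 to 3.87, adjusted p = 7.43e-07). *Gbp5*, known for its part in NLRP3 inflammasome assembly, had the lowest median CPM of the members with vehicle, from 1 to 78 counts per library. It lay at 0.0740 to 2.54 CPM (median 0.658) with vehicle and at 0.753 to 18.2 (median 8.80) at 9 weeks. Its log2 fold change of 3.70 had a wide interval (2.50 to 4.89, adjusted p = 5.72e-05), and 9 of 10 libraries at 9 weeks were above every vehicle library. *Gbp3*, of the chromosome 3 cluster, went from a median of 2.73 CPM (1.46 to 7.03) to 20.8 (4.52 to 38.6), a log2 fold change of 2.77 (2.13 to 3.41). *Gbp7*, which has been linked to assembly of the NADPH oxidase, went from 5.18 CPM (2.81 to 10.1) to 25.9 (4.25 to 46.3), a log2 fold change of 2.15 (1.54 to 2.77). *Gbp6*, of the chromosome 5 cluster, rose from 1.38 CPM (0.944 to 2.76) to 5.90 (3.06 to 9.85) without overlap, a log2 fold change of 2.0 (1.48 to 2.52). In edgeR the adjusted p of these 3 were 4.41e-07, 1.04e-05 and 2.50e-06.

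*Irf1*, the transcription factor, was the most abundant member and the one that changed least. It lay at 140 to 247 CPM (median 202) in the vehicle libraries and at 248 to 417 (median 326) at 9 weeks. The lowest 9-week library, male replicate 4 at 247.6 CPM, was just above the highest vehicle library, female replicate 3 at 247.4. The log2 fold change was 0.75 (0.52 to 0.97, adjusted p = 2.50e-05), 1.68-fold.

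**Figure D2:**
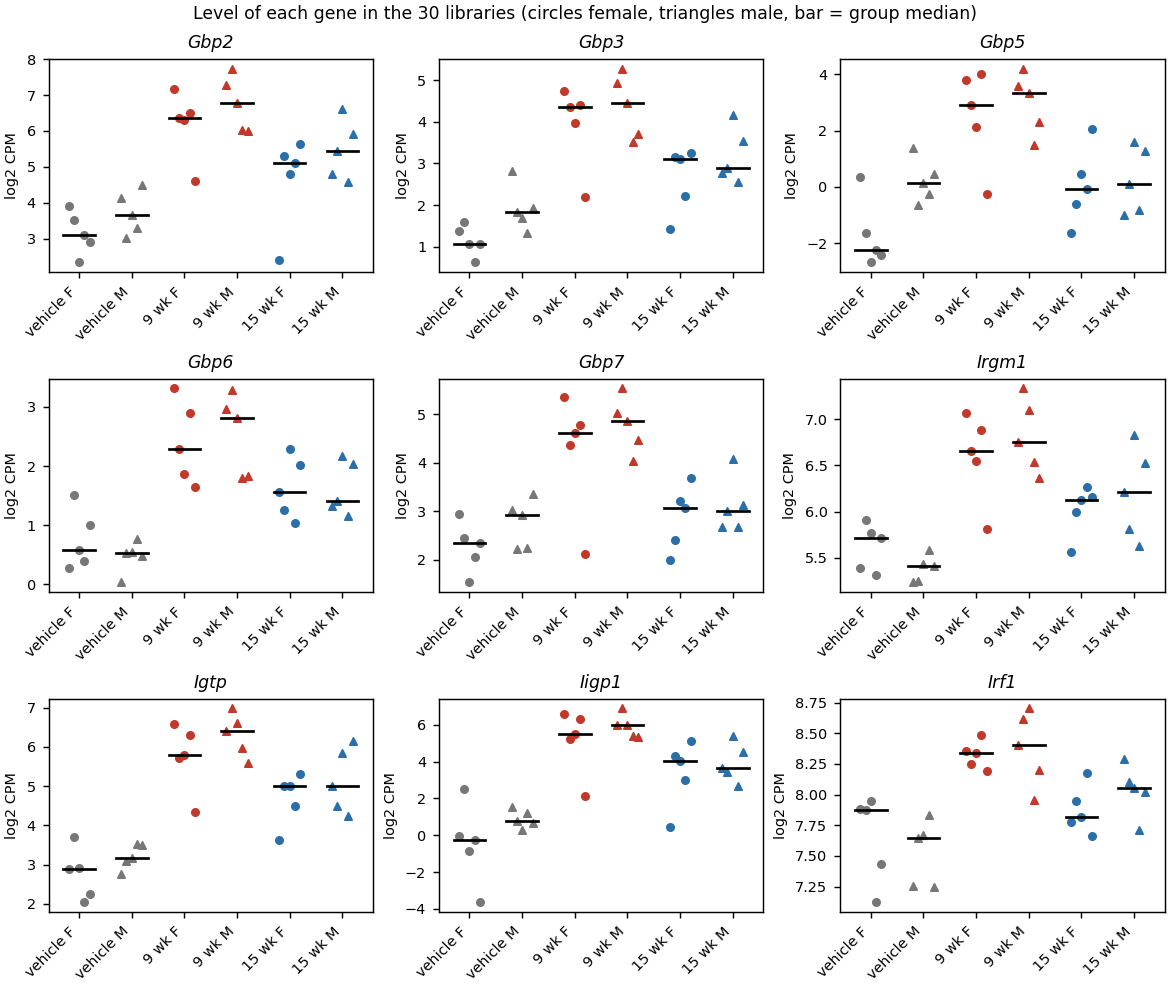
Log2 CPM (y axis) of the 9 members in the 30 libraries, by group (x axis). Circles are female and triangles male libraries, and black bars are group medians. Medians at 9 weeks (red) lie above those of vehicle (grey) in each panel, with 1 low female library in the GTPases, and most medians at 15 weeks (blue) lie between.

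Against vehicle at 15 weeks, the members stood higher than vehicle by smaller amounts. Of the 9 members 6 rose, *Gbp2*, *Gbp3*, *Gbp6*, *Irgm1*, *Igtp* and *Iigp1*, where 562 of 16261 genes (3.46%) were called upward. No member had all 10 libraries of 15 weeks above all 10 vehicle libraries, a separation seen in 0.166% of all genes. The median change of the 9 was 1.08 on the log2 scale, and -0.03 over all genes tested. *Gbp3*, *Gbp6* and *Iigp1* met the FPKM minimum only through the 15-week libraries, at means of 2.06, 1.18 and 3.92. Vehicle libraries were shared between this comparison and that at 9 weeks.

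*Iigp1* lay at 1.29 to 42.1 CPM (median 14.5) at 15 weeks, and 9 of these 10 libraries were above every vehicle library. Its log2 fold change was 3.30 (2.16 to 4.44, adjusted p = 0.000391). *Igtp* lay at 12.3 to 70.8 CPM (median 31.8), again with 9 of 10 libraries above every vehicle library, at a log2 fold change of 2.002 (1.42 to 2.58, adjusted p = 6.73e-05). *Gbp2* lay at 5.22 to 96.9 CPM (median 36.9), with a log2 fold change of 1.78 (1.07 to 2.50, adjusted p = 0.00160). For these 3 genes the library that fell into the vehicle range was female 15-week replicate 1. Smaller changes were found for *Gbp3* at 7.97 CPM (2.59 to 17.8; log2 fold change 1.47, 0.85 to 2.09, adjusted p = 0.00247), for *Gbp6* at 2.72 CPM (1.96 to 4.82; 1.08, 0.57 to 1.59, adjusted p = 0.00590) and for *Irgm1* at 70.7 CPM (47.3 to 113.7; 0.65, 0.33 to 0.96, adjusted p = 0.00728).

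The other 3 members did not pass at 15 weeks. *Gbp5* had a median of 0.918 CPM (0.240 to 4.06) and a log2 fold change of 1.06 (-0.08 to 2.20, adjusted p = 0.179). Its mean FPKM was at most 0.288 in the compared conditions, so it could not be called whatever its p. *Gbp7* had a median of 8.15 CPM (3.88 to 16.9) and a log2 fold change of 0.54 (-0.06 to 1.14, adjusted p = 0.193). For both, 8 of the 10 libraries of 15 weeks lay within the vehicle range. *Irf1* had a median of 253.5 CPM (203 to 313), and 5 of 10 libraries were above every vehicle library. Its log2 fold change of 0.35 (0.12 to 0.57, adjusted p = 0.0300) passed on p but was under the minimum of 0.4. The count of 6 was the same in each fit without 1 library and without the 4 libraries that stood apart, but was 1, 2 and 0 in limma fits on log2(TPM + 1), on log2(TPM + 0.1) and on log2(TPM + 1) with no filter. On adjusted p alone, without the fold and FPKM minimums, it was 7, with *Irf1* added. The limma fits used TPM, which relative to CPM had a lower median at 15 weeks (0.830) than with vehicle (0.950). The part of this in the limma counts was not tested, and no share of all genes is given for those fits.

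From 9 to 15 weeks, 8 of the 9 members fell in AOM/DSS-treated mice with the sexes averaged, where 310 of 16261 genes (1.91%) were called downward. *Gbp5* changed most, from a median of 8.80 to 0.918 CPM, a log2 fold change of -2.64 (-3.75 to -1.52, adjusted p = 0.0130). *Iigp1* followed at -1.74 (-2.76 to -0.72, adjusted p = 0.0425) and *Gbp7* at -1.62 (-2.22 to -1.02, adjusted p = 0.00586). *Gbp2* stood at -1.34, *Gbp3* at -1.30, *Igtp* at -1.09, *Gbp6* at -0.92 and *Irgm1* at -0.60, with adjusted p from 0.0172 to 0.0335 in edgeR. *Irf1* at -0.40 (-0.62 to -0.17, adjusted p = 0.0400) lay just under the fold minimum before rounding. *Gbp5* met the FPKM minimum only through the 9-week libraries, at a mean of 2.16 beside 0.288 at 15 weeks. No member had every library of 15 weeks under every library of 9 weeks, which held for 0.0123% of all genes. Without female 9-week replicate 5, 8 or 9 of the 10 libraries of 15 weeks were under all remaining 9-week libraries in *Gbp2*, *Gbp3*, *Gbp5*, *Gbp7*, *Irgm1*, *Igtp* and *Iigp1*, against 1 to 4 with it, while *Gbp6* had 6 and *Irf1* 5 either way.

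The count of 8 depended on single libraries. It was 3 without female 9-week replicate 1, female 9-week replicate 4 or male 9-week replicate 2, and 4 without female 15-week replicate 1. It was 5 without male 9-week replicate 1, male 9-week replicate 3, female 15-week replicate 2, male 15-week replicate 1 or male 15-week replicate 4. The sign did not change in these fits, and *Gbp5*, *Gbp7* and *Gbp3* stayed called in all 20. *Iigp1* lost its call in 14 of the 20 fits, with adjusted p up to 0.0903. Without the 4 libraries that stood apart, 9 of 9 members were called.

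**Figure D3:**
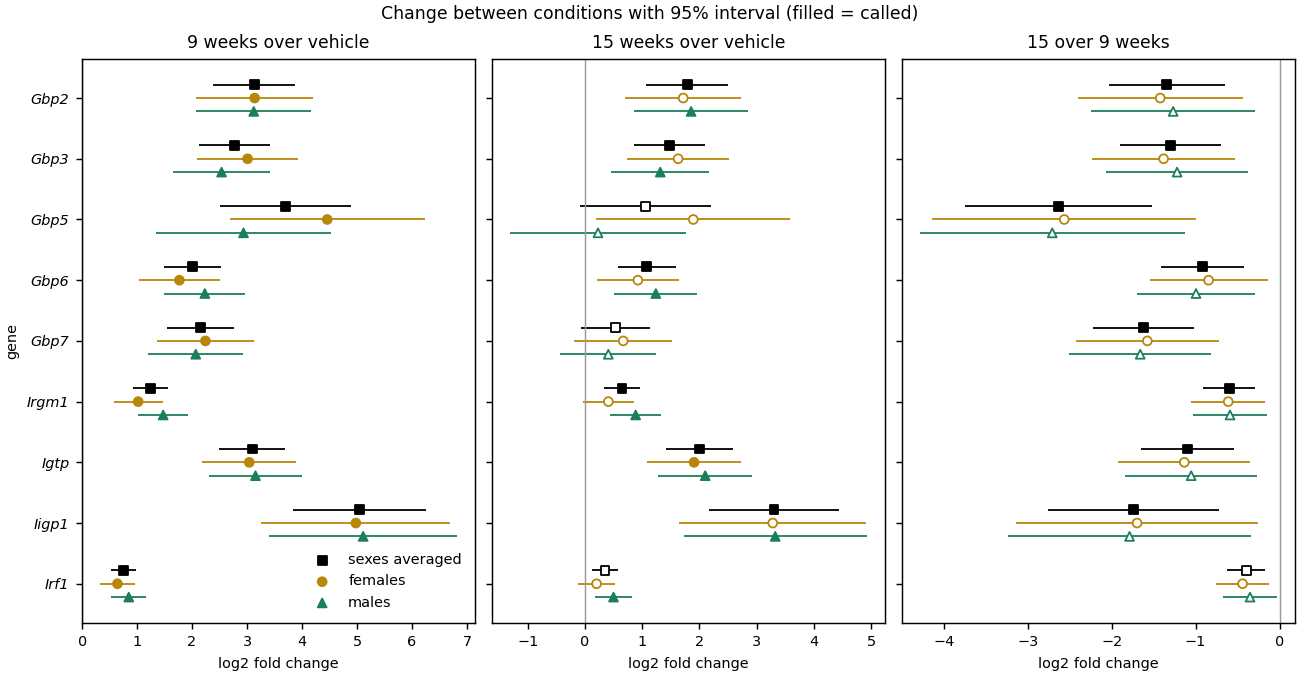
Log2 fold changes (x axis) of the 9 members (y axis) with 95% intervals in 3 comparisons, for the sexes averaged (squares), females (circles) and males (triangles). Filled symbols are called genes. At 9 weeks every symbol is filled, at 15 weeks 6 squares, 7 triangles and 1 circle are, and for 15 over 9 weeks 8 squares are.

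Sex was examined next, first by the response within each sex. At 9 weeks 9 of 9 members rose in males, where 4.42% of genes were called upward, and 9 of 9 in females, where 2.42% were. *Gbp5*, *Gbp6* and *Iigp1* in both sexes, and *Gbp3* and *Gbp7* in females, met the FPKM minimum only through the 9-week libraries. Leaving out 1 library cost *Gbp5* its call in males without male 9-week replicate 2, and *Irf1* its call in females without female vehicle replicate 4, female vehicle replicate 5 or female 9-week replicate 4. In males every 9-week library lay above every vehicle library for all 9 members, which held for 5.55% of all genes. In females this was so for 5 of them, *Gbp2*, *Gbp3*, *Gbp6*, *Igtp* and *Irf1*, and for 2.71% of all genes. *Gbp5* had 0.133 CPM as the median in vehicle-treated females and 1.01 in vehicle-treated males, and 7.49 and 10.1 at 9 weeks. The log2 fold change of *Gbp5* was 4.46 (2.68 to 6.23) in females and 2.93 (1.34 to 4.53) in males, and the difference between these responses, -1.52, had an interval of -3.74 to 0.70 (adjusted p = 0.765).

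At 15 weeks 7 of 9 members rose in males, with 4.37% of genes called upward, and 1 of 9, *Igtp*, in females, with 0.0861% called. *Gbp5* and *Gbp7* were the 2 that did not pass in males, at 0.23 (-1.32 to 1.77) and 0.41 (-0.43 to 1.25). *Gbp5* could not be called in either sex, since its highest group mean FPKM was 0.294 in males and 0.317 in females. In males *Gbp6* and *Iigp1* met the FPKM minimum only through the 15-week libraries. *Igtp* in females went from a median of 7.32 CPM (4.06 to 12.9) with vehicle to 31.8 (12.3 to 39.7), a log2 fold change of 1.90 (1.08 to 2.73, adjusted p = 0.0498). The call of *Igtp* was kept without female vehicle replicate 2 or female 15-week replicate 1 and lost in the 8 fits that left out any other library, with adjusted p up to 0.186. In males, leaving out 1 library gave 5 to 7 calls. *Gbp3* lost its call in 6 of the 10 fits (without male vehicle replicate 2, 3, 4 or 5 or male 15-week replicate 3 or 5), *Irf1* in 4 (without male vehicle replicate 1 or 5 or male 15-week replicate 1 or 2) and *Gbp6* in 3 (without male vehicle replicate 1 or male 15-week replicate 3 or 5). Without male 15-week replicate 3 *Gbp6* still passed on adjusted p and missed the FPKM minimum. In the limma fits on TPM, 0 members were called in males and *Irf1* stood at -0.02. For some members the estimate in females was close to that in males without passing. *Iigp1* had 3.28 in females (adjusted p = 0.0892) and 3.32 in males (adjusted p = 0.00759), and *Gbp3* 1.63 (adjusted p = 0.159) and 1.31 (adjusted p = 0.0357). *Irgm1* and *Irf1* had 0.41 and 0.20 in females and 0.88 and 0.50 in males. Every male library of 15 weeks lay above every male vehicle library for 5 members, *Gbp2*, *Gbp6*, *Irgm1*, *Igtp* and *Iigp1*, and for 2.88% of all genes. In females this held for 0 members and 1.09% of all genes, and female 15-week replicate 1 was the lowest of the 10 libraries of 15 weeks for 7 members.

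Tested directly, no member was called between the sexes. Called members were 0 of 9 between males and females with vehicle (0.178% of genes called in either direction), 0 of 9 at 9 weeks (0.0492%) and 0 of 9 at 15 weeks (0.184%). For the difference between the male and female responses at 9 weeks, at 15 weeks and from 9 to 15 weeks, 0 of 9 members and 0.0% of all genes were called by edgeR, and DESeq2 on all libraries also called 0 members. Only *Gbp5* in vehicle-treated mice had an unadjusted p under 0.05 in these 6 comparisons in edgeR (males over females 1.70, 0.01 to 3.39, adjusted p = 0.265). With vehicle *Gbp5*, *Iigp1* and *Gbp6* could not be called whatever their p, at a highest group mean FPKM of 0.294, 0.466 and 0.625. The same held for *Gbp5* at 15 weeks (0.317), between the sexes and between their responses. The intervals leave room for sizeable differences. That of *Iigp1* for the response at 15 weeks ran from -2.15 to 2.24, that of *Gbp2* from -1.25 to 1.53, and that of *Irf1*, the most precise, from -0.15 to 0.75. From 9 to 15 weeks 0 of 9 members and 0.0% of all genes were called within males or within females, while 9 of 9 had an unadjusted p under 0.05 and a negative estimate in each sex, beside 2179 of all 16261 genes with such a p in males and 2046 in females. DESeq2 called 2 members in males and 1 in females there, and without female 9-week replicate 5 edgeR called 5 in females. The shares of all genes called in these alternative fits are not given, so these counts describe the members alone.

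The ligand and receptor of the pathway were compared next. *Ifng*, which encodes interferon gamma itself, was scarce in these libraries. It had 0 or 1 count in the vehicle libraries (0 in 8 of 10), 0 to 116 counts at 9 weeks (0 in 1 of 10) and 0 to 8 counts at 15 weeks (0 in 4 of 10). Its adjusted p in edgeR was 5.00e-05 at 9 weeks and 0.123 at 15 weeks against vehicle. At 9 weeks *Ifng* was not called because its FPKM stayed under the minimum, and at 15 weeks its adjusted p did not pass. The receptor genes *Ifngr1* and *Ifngr2* and the kinase genes *Jak1* and *Jak2* had log2 fold changes from -0.10 to 0.12 at 9 weeks, with adjusted p from 0.449 to 0.810. *Socs1* and *Socs3*, which encode feedback inhibitors of the kinases, rose by 2.14 each at 9 weeks and by 1.52 and 1.07 at 15 weeks.

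Other members of the same families moved alongside. For the counts of this paragraph, 5.51% of all genes were called upward at 9 weeks and 3.46% at 15 weeks. The lists were chosen with earlier results of these data known, so their counts only describe the listed genes. Of 4 tested other GBP genes, 3 rose at 9 weeks and 1 at 15 weeks. *Gbp4* stood at 3.06 at 9 weeks and 0.75 (adjusted p = 0.161) at 15 weeks, *Gbp8* at 2.01 and 0.84, and *Gbp9* at 1.91 and 0.39 (adjusted p = 0.303). *Gbp4*, *Gbp8* and *Gbp9* overlap each other in the annotation, so their reads may be shared. Of 13 tested other IRG genes, 7 rose at 9 weeks and 6 at 15 weeks, and 0 fell. Among the called IRG genes the largest changes at 9 weeks were those of *Gm4951* (5.49), *Tgtp1* (5.01) and *Tgtp2* (3.81), of which the last 2 are near-identical copies. *Gm12250*, an IRG that attacks bacterial membranes, rose by 3.75 at 9 weeks and 2.53 at 15 weeks. *Irgm2*, the third regulatory IRG, rose by 2.27 and 1.20. Among 8 other IRF genes, 3 rose at 9 weeks. *Irf5*, a factor of macrophages and B cells, stood at 1.17, *Irf9*, the DNA-binding part of the type I interferon complex, at 0.82 and *Irf8*, a myeloid factor, at 0.65. At 15 weeks 3 rose and 1 fell, with *Irf9* at 0.56 and *Irf8* at 0.41 still called.

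Other targets of interferon were higher too, beside 5.51% of all genes called upward at 9 weeks and 3.46% at 15 weeks. Of 14 other genes known to be induced by interferon gamma, 13 rose at 9 weeks and 12 at 15 weeks, with list medians of 2.56 and 1.49. *Cxcl9*, a chemokine for T cells, stood at 5.23 and 3.79, *Nos2*, the inducible nitric oxide synthase, at 4.99 and 2.85, and *Nlrc5*, the activator of MHC class I genes, at 4.51 and 3.04. Of 15 genes known mainly from type I interferon, 14 rose at 9 weeks and 11 at 15 weeks, with medians of 1.38 and 0.94. *Ifit2* led at 4.44 and 2.71, *Ifi44* followed at 3.02 and 1.66 and *Usp18* at 2.74 and 1.89. From 9 to 15 weeks, 10 of the 14 interferon gamma targets and 2 of the 15 type I genes fell, beside 8 of the 9 members and 1.91% of all genes. The difference between these counts was not tested, and these lists too were chosen with earlier results of these data known.

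**Figure D4:**
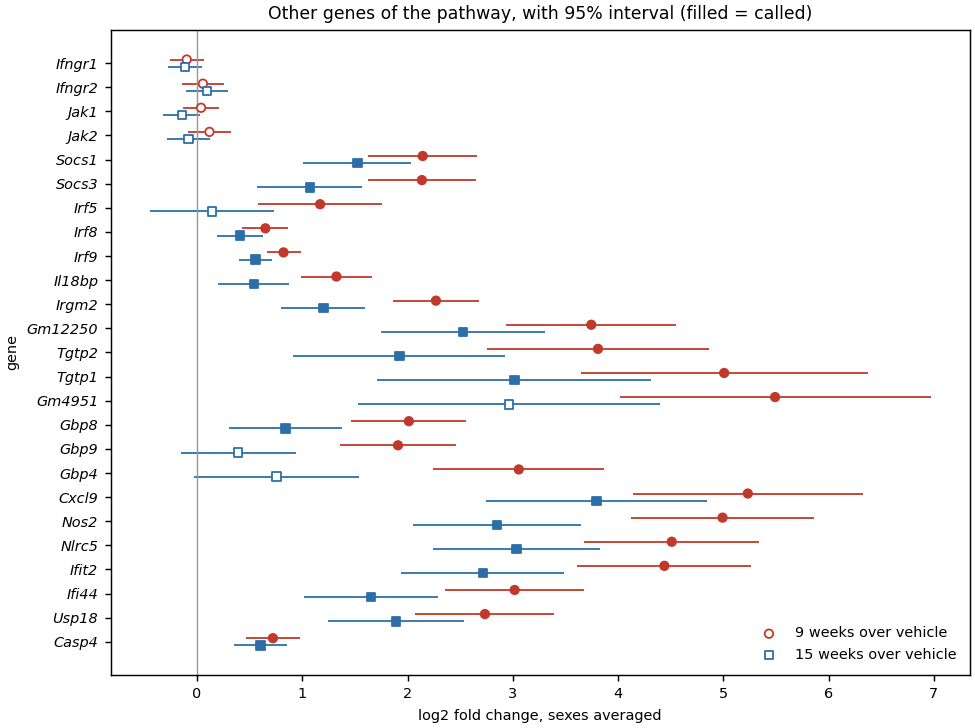
Log2 fold changes against vehicle with the sexes averaged (x axis), with 95% intervals, for named genes of the pathway lists (y axis), at 9 weeks (red circles) and 15 weeks (blue squares). Filled symbols are called genes. The receptor and kinase genes lie at 0 with open symbols, and the *Socs* genes, GBPs, IRGs and interferon targets lie to the right, further at 9 than at 15 weeks. *Ifng* is left out since most of its vehicle libraries held no count.

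Likeness of pattern was described over the 30 libraries, which share the 3 conditions, with no test. The genes most like the mean of the 8 GTPases, each scaled to its own spread, were *Irgm2* (Pearson r = 0.984), *Ifit2* (0.969), *Tgtp1* (0.964), *Tap1* (0.961), a peptide transporter of MHC class I, and *Nlrc5* (0.960). *Irf1* itself had r = 0.779 with that mean. The genes most like *Irf1* were others, *Trim40* (0.876) and *Trim15* (0.875), a pair of TRIM family genes, *H2-D1* (0.867), an MHC class I gene, *Muc13* (0.860), a transmembrane mucin, and *Gvin1* (0.856), a very large interferon-inducible GTPase.

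Libraries of the same group also differed together. After the mean of each group was taken off, the 28 pairs of GTPases had correlations over the 30 libraries from 0.476 to 0.895 with a median of 0.738, highest between *Gbp5* and *Gbp7*. The 8 pairs of *Irf1* with a GTPase had 0.134 to 0.498 with a median of 0.247. At 9 weeks 1 library, female replicate 5, was the lowest of 10 for all 8 GTPases and male replicate 2 was the highest for 7 members. For *Irf1* that female library lay at 292 CPM, beside 305 to 358 CPM in the other 4 females and 247.6 CPM in the lowest male.

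Marker levels moved with this spread. Of the 7 marker lists, the neutrophil list tracked the GTPases most closely within groups. The 7 tested neutrophil markers had r = 0.824 (Spearman 0.846) with the mean of the 8 GTPases, over 30 libraries in which both values of a point come from the same library, and 0.763 without the 2 libraries furthest out. *Ly6g* alone (7.13 to 176 CPM per library) was above the sum of the others in all libraries but female 9-week replicate 4. The other markers together had 0.0 to 3.55 CPM in vehicle libraries (median 0.542), 0.645 to 124 (median 24.4) at 9 weeks and 0.620 to 17.1 (median 1.98) at 15 weeks, and r was 0.827 without *Ly6g*. Defining markers were at 0 in many vehicle libraries, *S100a8* in 7 of 10 and *S100a9* in 6 of 10. Macrophage markers had r = 0.562, B and plasma cell markers 0.510, endothelial markers 0.446, fibroblast and smooth muscle markers 0.373, T and NK cell markers 0.00890 and epithelial markers -0.348. In female 9-week replicate 5, where the GTPases were lowest, the neutrophil markers without *Ly6g* summed to 0.645 CPM, the macrophage markers to 57.8, the B and plasma cell markers to 637, the endothelial markers to 15.0 and the fibroblast and smooth muscle markers to 43.9, each the lowest of the 10 libraries of 9 weeks. Its epithelial markers at 42966 CPM and its T and NK cell markers at 39.9 CPM were the highest of the 10. The part of these cells in the GTPase levels was not tested.

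**Figure D5:**
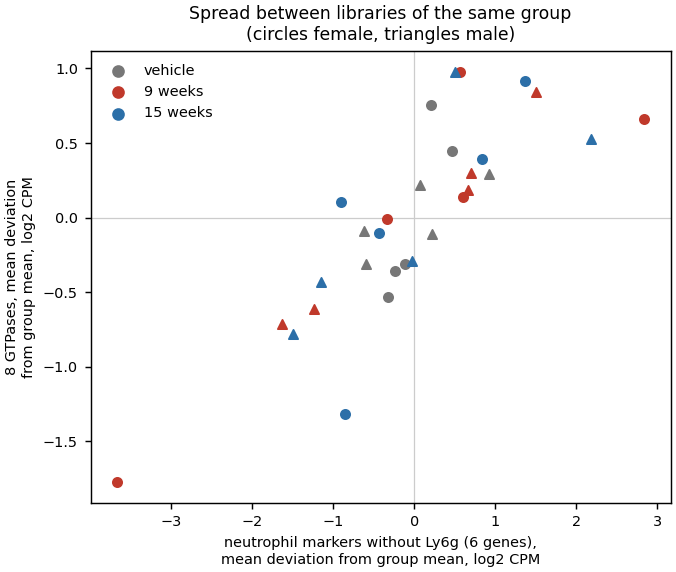
Mean deviation of the 8 GTPases from their group mean (y axis, log2 CPM) against that of 6 neutrophil markers without *Ly6g* (x axis, log2 CPM) in 30 libraries, with vehicle in grey, 9 weeks in red and 15 weeks in blue, circles female and triangles male. Points run from lower left, where female 9-week replicate 5 lies, to upper right, with r = 0.827, and 0.779 without the 2 libraries furthest out on the x axis.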

How the data were processed

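RNA of the scraped colon epithelial layer was sequenced from poly-A-selected, strand-specific libraries, 1 per mouse. Per the labels and the study's methods, the authors used bcl2fastq 2.20.0.422, CASAVA and Trim Galore on the reads, aligned them to GRCm38 with STAR, and deposited read counts per gene from featureCounts. The strand setting of the counting was not given in the sources used here. The deposited TPM and FPKM values per library were made by the authors with StringTie.

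Counts were fitted with edgeR 4.0.16 in R 4.3.3 (quasi-likelihood test, TMM factors 0.832 to 1.1, biological coefficient of variation 0.319) over all 30 libraries and 6 groups, after filterByExpr kept 16261 genes. P-values were adjusted by Benjamini-Hochberg over all of these. A call needed adjusted p under 0.05, a log2 fold change beyond 0.4 and a mean FPKM of at least 1 in a compared group. The labels name 5 mice per group. Alternatives were DESeq2 1.42.0, limma 3.58.1 on log2(TPM + 1) and log2(TPM + 0.1), RLE factors, no filter, the compared libraries alone, adjusted p alone, a replicate block, each library left out, and, chosen after seeing the data, 4 libraries left out.

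The members and lists were chosen with earlier results of these data known. All members were named, and from each other list the called genes with the largest change at 9 weeks, up to 3, plus *Ifng*, *Ifngr1*, *Ifngr2*, *Jak1*, *Jak2*, *Socs1*, *Irf8*, *Irf9*, *Irgm2*, *Gbp4* and *Gm12250*, and the 5 genes most like the GTPase mean and *Irf1*. A gene that this rule also names is not reported here.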

Additional observations from a re-analysis of the deposited data

Results flagged for a closer look

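In 1 of 54 combinations of a member and a group of 5 libraries, the lowest or highest library stood further from the rest than Dixon's 95% limit allows. This was *Gbp2* in female 15-week replicate 1, at 2.41 log2 CPM where the median of its group was 5.12. Chance gives such a gap in about 1 in 20 groups.

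The symbol *Gbp6* stood on a second row of the table (ENSMUSG00000079362, chr5:105214907-105293695, minus strand), a longer gene model that shares exons with the tested row. It had 0 counts in all 30 libraries, while the authors' TPM for it had a median of 1.53 at 9 weeks, above the highest vehicle value of 0.515. Of the 10 libraries of 9 weeks, female replicate 3 (0.0 TPM) and female replicate 5 (0.399 TPM) lay under that value. The difference was not tested.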

How the results depend on the processing

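All 9 members stayed called at 9 weeks with the sexes averaged under each alternative run. At 15 weeks the count of 6 was 1 with limma on log2(TPM + 1), 2 on log2(TPM + 0.1) and 0 on log2(TPM + 1) with no filter. In males at 15 weeks the 7 calls became 3 on the compared libraries alone and 0 in each limma fit. In females at 15 weeks the single call became 0 with the replicate block, without the 4 libraries that stood apart, on the compared libraries alone and in each limma fit, 4 with DESeq2, and 0 to 2 when 1 library was left out. From 9 to 15 weeks, leaving out 1 library gave 3 to 9 calls with the sexes averaged and 0 to 5 in females. In males the count of 0 became 1 without the 4 libraries, 2 with DESeq2, and 9, 8 and 6 in the limma fits on log2(TPM + 1), log2(TPM + 0.1) and log2(TPM + 1) with no filter. In females it became 6 without the 4 libraries and 1 with DESeq2. TPM relative to CPM had a median of 1.26 in male 9-week and 0.776 in male 15-week libraries. Its part in the limma counts was not tested. No share of all genes is given for these alternative fits, so the counts describe the members alone.

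Some log2 fold changes in males at 15 weeks turned negative. *Gbp5* ran from -0.17 to 0.67 when 1 library was left out. On log2(TPM + 1), *Gbp5* was -0.0924, *Gbp7* -0.0748 and *Irf1* -0.0226, with the same values (-0.0924, -0.0748 and -0.0226) with no filter. On log2(TPM + 0.1) they were -0.42, -0.12 and -0.0234. TPM relative to CPM stood at a median of 1.08 in male vehicle libraries and 0.776 in male 15-week libraries. The cause of the negative values was not tested.

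Replicate numbers did not pair the libraries. Deviations from the group means correlated between -0.581 and 0.467 over 75 same-numbered pairs (median -0.0262), and between -0.578 and 0.533 over 300 others (median 0.00666). With the replicate block 7 members fell from 9 to 15 weeks. Depth limits *Gbp5*, at 1 to 78 counts per vehicle library, and *Iigp1*, at 0 to 140.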

Other observations

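Genes that act upstream and downstream of the GTPases were counted from 2 further lists. Of 8 tested genes around the induction of interferon gamma in lymphocytes, 1 rose at 9 weeks and 1 at 15 weeks, beside 5.51% and 3.46% of all genes. In both cases it was *Il18bp*, which encodes the secreted inhibitor of interleukin 18 and not an inducer (log2 fold change 1.32, adjusted p = 2.24e-06 in edgeR, and 0.54, adjusted p = 0.0265). Of 14 tested genes that load the GTPases onto vacuoles or act in inflammasomes after them, 1 rose at each time, near those shares of all genes. It was *Casp4*, which encodes the caspase that senses bacterial lipopolysaccharide (0.72, adjusted p = 0.000171, and 0.60, adjusted p = 0.00252).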
